A study of Mus musculus with 7 samples.

Results

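Transcripts of the collagen gene family were measured in labial cervical loops, the epithelial pockets at the base of mouse incisors that feed the continuous growth of these teeth. The members were all probes of the intensity table whose gene symbol is Col followed by a number, the letter a and a second number. This rule took 58 of 25697 probes, of 36 genes. The symbol rule does not look at any measured value. All 36 symbols are current in the RefSeq table of GRCm38.p6, and 8 other collagen genes of that table (Col6a3, Col6a4, Col6a5, Col6a6, Col8a1, Col20a1, Col22a1 and Col26a1) were not analysed here.

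Control tissue came from mice labelled Yap/Tazf/f, and mutant tissue from mice labelled K14CreER;Yap/Tazf/f, so that both carried the floxed Yap and Taz alleles and only the mutants carried the Cre. K14CreER is a tamoxifen-dependent Cre recombinase driven by the promoter of keratin 14, a gene of basal epithelial cells. Mice of both genotypes received 5 mg of tamoxifen on each of 2 days, starting at 8 weeks of age, and tissue was collected 48 hours after the last dose. The Cre and the loss of its targets cannot be told apart because no control carried the Cre. There were 3 control and 4 mutant samples, each on 1 Illumina bead array. Chip 1 held control replicates 1 and 2 with mutant replicates 1 and 2, and chip 2 held control replicate 3 with mutant replicates 3 and 4.

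Collagens are secreted or membrane-bound proteins built from chains with a regular repeat of glycine, which wind around each other into a triple helix. Fibrillar collagens make the ropes of bone, dentin, skin and tendon. The type IV collagens make the sheet of the basement membrane under every epithelium, and the FACIT collagens (fibril-associated collagens with interrupted helices) sit on the surface of fibrils. Type XVII collagen spans the membrane of basal epithelial cells in the hemidesmosome, and type VII collagen anchors the basement membrane to the mesenchyme below it. In a tooth, odontoblasts and the bone around the socket are the usual sources of type I collagen, whereas the enamel epithelium itself is set on a basement membrane.

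Between 13767 and 14752 probes were detected per array, where a probe counts as detected at a detection p-value under 0.05 against the negative control beads, and 14666 probes detected on at least 3 arrays were tested. Yap1 fell by 0.68 on the log2 scale in mutant arrays (SE 0.12, limma adjusted p = 0.0443) and Wwtr1, the gene of TAZ, differed by -0.15 (SE 0.14, limma adjusted p = 0.819). The Yap1 call was lost in 15 of 21 alternatives, with differences from -0.74 to -0.42 and adjusted p-values from 0.0098 to 0.781. The labelled tissue showed its epithelial markers, with 7 of 8 listed genes tested, among them Krt14 at 9.95 in controls and 9.94 in mutants (log2 levels, group means). Endothelial markers were largely below detection, with only Tie1 and Esam of 7 genes tested (summed log2 level 8.57 to 8.75 in controls and 8.67 to 8.87 in mutants). The summed levels of 4 Schwann cell genes were 21.0 to 21.3 and 21.5 to 22.7, and those of 5 macrophage genes 23.2 to 24.7 and 23.9 to 25.6. Nothing in the labels says whether samples came from separate animals, so the p-values speak for the spread between these samples only. Because whole tissue was measured, fewer cells of a type and less RNA per cell cannot be told apart.

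Of the 36 collagen genes, 15 (41.7%) had a probe detected on all 7 arrays, against 48.2% of all 18138 genes on the array. On at least 3 arrays it was 22 (61.1%), against 57.8% of all genes, and these were tested with 29 of the 58 probes. For 9 genes every probe was undetected on every array: the fibril surface collagens Col12a1, Col14a1 and Col19a1, the basement membrane chains Col4a3, Col4a4 and Col4a6, the transmembrane Col13a1, the minor fibrillar Col5a3 and Col10a1, the collagen of hypertrophic cartilage. Another 5 genes (Col6a1, Col15a1, Col23a1, Col24a1 and Col28a1) were detected on 1 or 2 arrays at most. Col3a1, a collagen of loose connective tissue, was detected on 2 control and 2 mutant arrays with 1 probe and on 0 arrays with the other. Of the probes just inside the filter, 4 were detected on 3 arrays, and 3 just outside it on 2. A probe that is not detected has only an upper bound here, and its RNA may still be present.

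**Figure D1:**
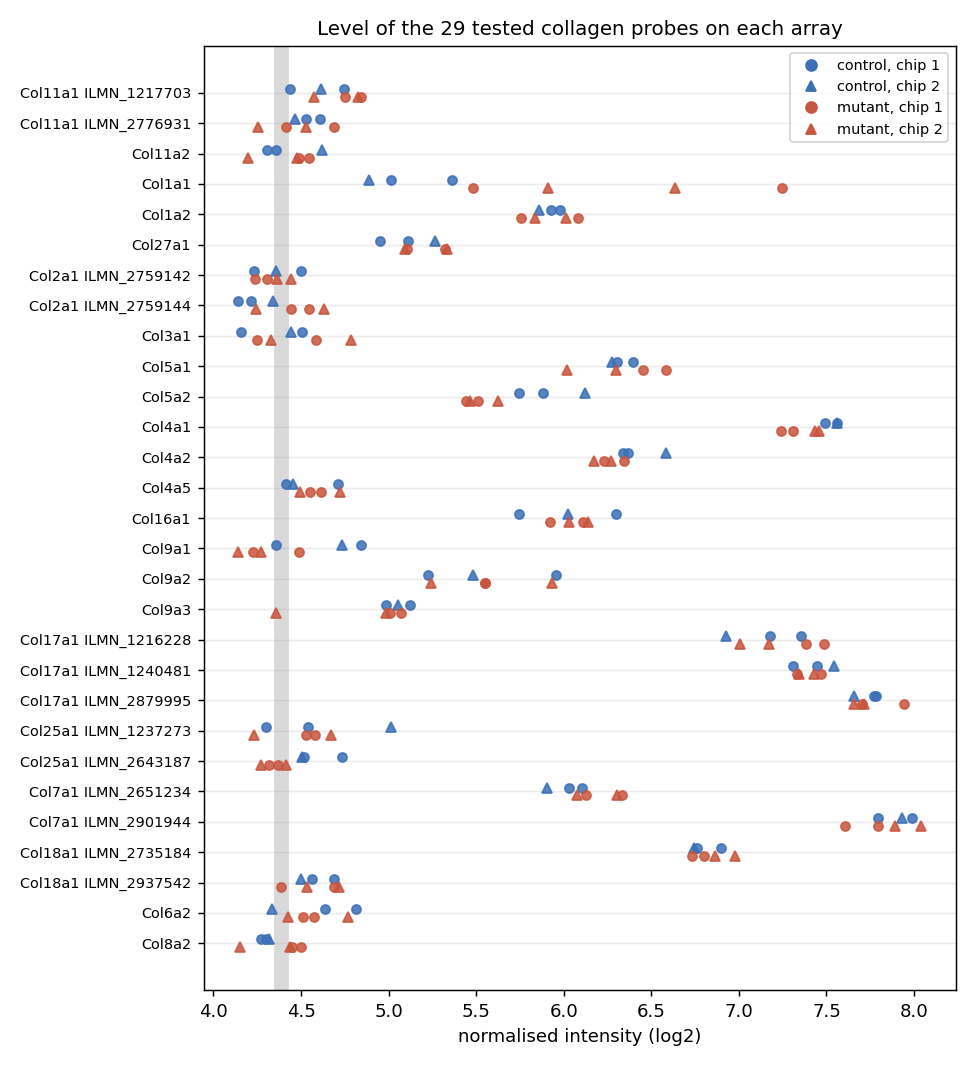
Normalised log2 intensity (horizontal axis) of the 29 tested collagen probes on each of the 7 arrays, grouped by structural class from fibrillar at the top to Col8a2 at the bottom. Colours give the genotype, marker shapes the chip, and the grey band spans the lowest value of a detected probe on each array (4.35 to 4.42). The mutant values of Col1a1 spread from 5.48 to 7.25, while most other probes keep both genotypes close together. Levels of different probes are not comparable with each other, since each probe binds its target differently.

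As a family, the collagens differed little between the genotypes. With limma on all tested probes and the chip as a term, 0 of the 29 collagen probes passed an adjusted p of 0.05, against 9 of 14666 probes (0.0614%), and the lowest adjusted p of a collagen was 0.152. At an unadjusted p under 0.05 there were 3 of 29 (10.3%), the probes of Col1a1, Col5a2 and Col9a1, against 8.00% of all tested probes. The median log2 difference, mutant minus control, was 0.0059 over the 29 probes and 0.00025 over all tested probes, with 15 collagen probes positive and 14 negative. Of the 29 probes, 1 each of Col2a1 and Col8a2 passed the detection filter only through the mutant arrays. Scaling the arrays by their medians in place of quantiles gave 19 positive and 10 negative, with a median of 0.077 against 0.068 over all probes. The 95% interval of the difference lay within -0.5 and 0.5 for 26 of the 29 probes, the exceptions being the same Col1a1, Col5a2 and Col9a1. Several of these probes lay close to the detection band, where the processing compresses differences. Their narrow intervals say little about the RNA. The SEs of the 29 probes were 0.11 to 0.26. All 4 mutant arrays lay above all 3 controls for 1 of 29 probes (3.45%), Col1a1, against 3.28% of all tested probes. They lay below all controls for 3 of 29 (10.3%), 1 each of Col5a2, Col4a1 and Col25a1, against 3.27%. The Col25a1 probe was detected on 3 control arrays and 1 mutant array. The controls alone met the detection filter for it, so that no separation is read from this probe.

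**Figure D2:**
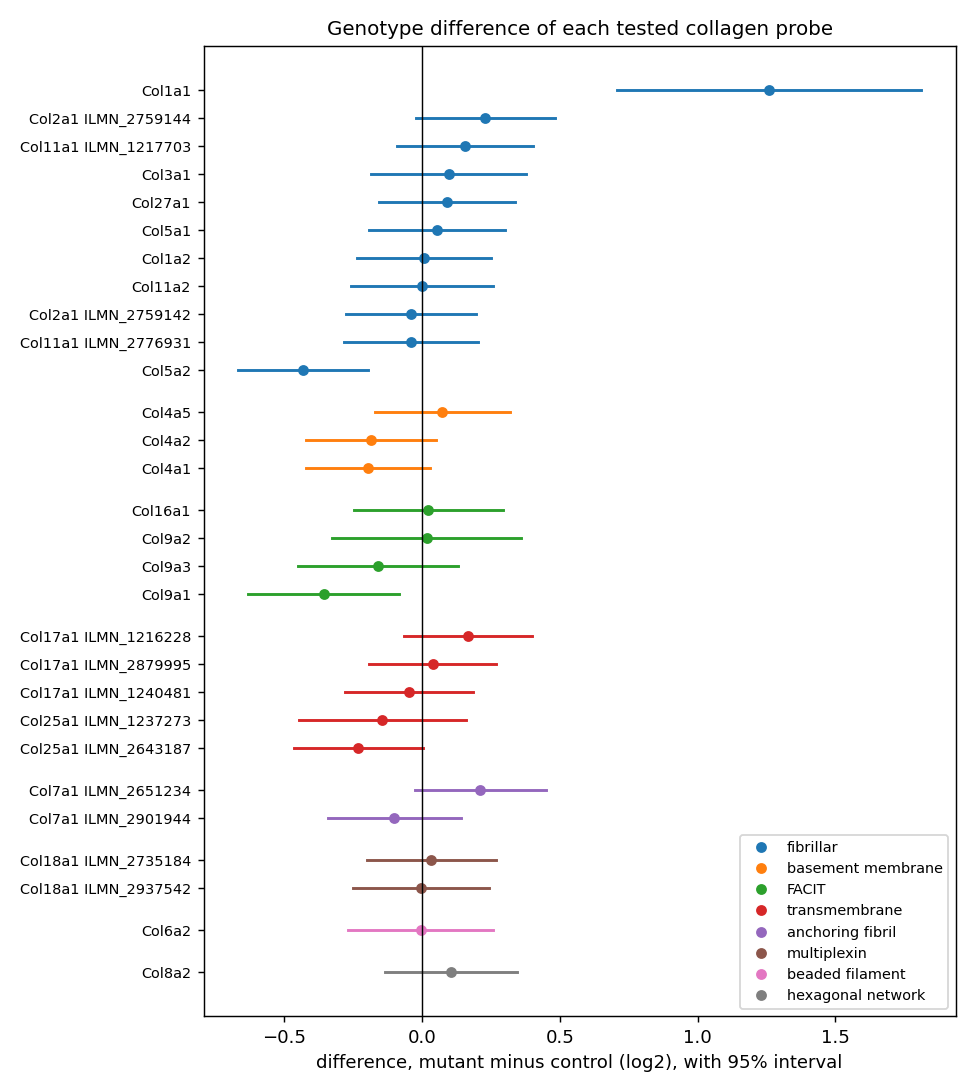
Log2 difference, mutant minus control, with its 95% interval (horizontal axis) for each of the 29 tested collagen probes, coloured by structural class. Col1a1 stands at 1.26 with an interval of 0.71 to 1.81, Col5a2 at -0.43 and Col9a1 at -0.36, and the intervals of all other probes include 0.

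Among the fibrillar collagens, Col1a1 had the largest difference. It encodes the alpha 1 chain of type I collagen, the main protein of bone and dentin, and has 1 probe here. Its log2 level was 5.02, 5.36 and 4.89 in control replicates 1 to 3 and 7.25, 5.48, 5.91 and 6.63 in mutant replicates 1 to 4. The genotypes did not overlap, but mutant replicate 2 lay only just above control replicate 2, and the mutant arrays were far more spread (SD 0.78, n = 4) than the controls (SD 0.25, n = 3). In unprocessed intensity the control arrays read 89.2, 95.9 and 92.8 and the mutant arrays 208, 109, 131 and 167, with bead standard errors of 2.07 to 2.16 in controls and 3.96 to 9.57 in mutants.

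The fitted Col1a1 difference was 1.26 (SE 0.26, 95% interval 0.71 to 1.81), a 2.39-fold higher level. It was the largest positive difference among the 14666 tested probes, and ranked 1 to 9 under the other settings. It ranked 12 by p-value and did not pass (limma adjusted p = 0.152). The difference was 1.18 on chip 1 and 1.39 on chip 2, and the test of the difference between the chips gave 0.21 (unadjusted p = 0.703). Whether it passed depended on the setting, with limma adjusted p-values of 6.46e-05 to 0.634 over all alternatives. The highest came with the trend and robust options of eBayes, where the SE was 0.52. Without mutant replicate 1 the difference was 0.84 (limma adjusted p = 0.541). Without mutant replicate 2 the difference was 1.72 and it passed (limma adjusted p = 6.46e-05). It also passed on chip 2 alone (limma adjusted p = 0.000348), where 1 control stands for its group, and it came to 0.62 without background correction, 0.62 and 0.64 in the series matrix values with and without a chip term, and 0.79 with an offset of 50.

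**Figure D3:**
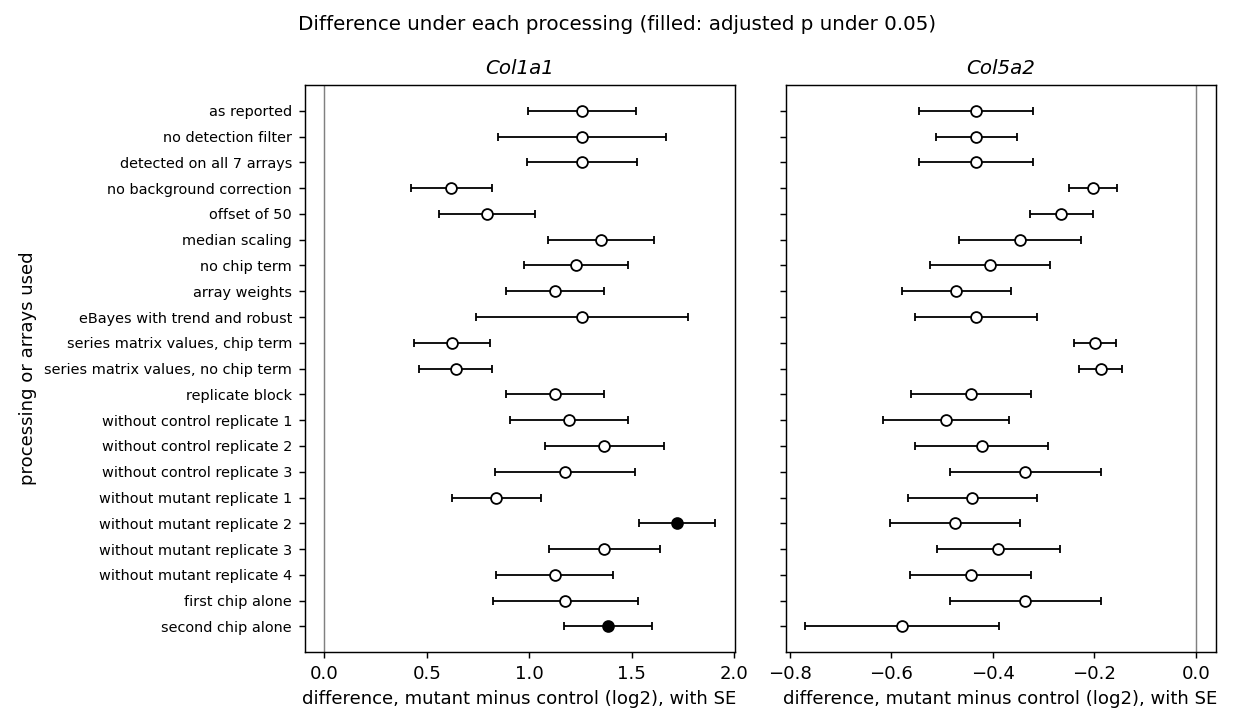
Log2 difference, mutant minus control, with its SE (horizontal axis) for Col1a1 on the left and Col5a2 on the right under each processing and choice of arrays (vertical axis). Filled circles mark an adjusted p under 0.05. Col1a1 stays positive from 0.62 to 1.72 and is filled only without mutant replicate 2 and on chip 2 alone, and Col5a2 stays negative from -0.58 to -0.19 and is never filled.

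Col1a2, which encodes the alpha 2 chain that joins the Col1a1 product in type I collagen, did not show the same pattern. Its log2 level was 5.93, 5.98 and 5.86 in controls and 6.08, 5.76, 5.84 and 6.01 in mutants, and the groups overlapped fully. The fitted difference was 0.0059 (SE 0.12, 95% interval -0.24 to 0.25, limma adjusted p = 0.997). Within each array, Col1a1 minus Col1a2 was higher in all 4 mutant arrays than in all 3 controls, by 1.23 on average. This shift was 1.21 on chip 1 and 1.32 on chip 2. An exact two-sided permutation test over the arrays gave p = 0.0571, the smallest p that 3 against 4 arrays allow, and 0.171 after adjustment over the 3 chain pairs compared. The pairs were chosen after the values were known.

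**Figure D4:**
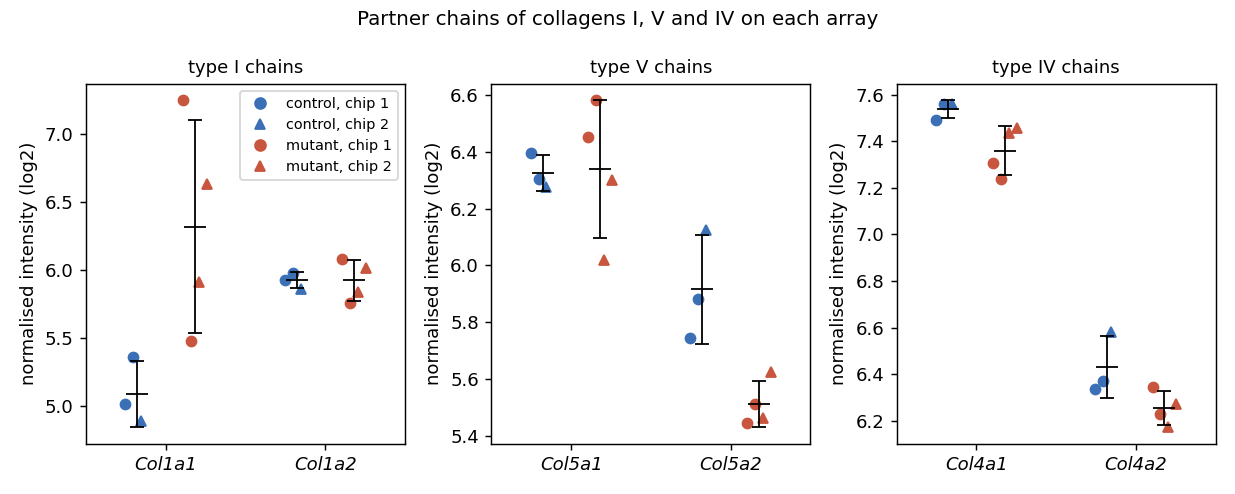
Normalised log2 intensity (vertical axes) of both chains of type I, type V and type IV collagen on each array. Points are arrays, coloured by genotype and shaped by chip, and bars give the mean and SD of 3 control and 4 mutant arrays. Col1a1 is higher in the mutants while Col1a2 is level, and Col5a2 is lower while Col5a1 overlaps. Heights of different probes are not comparable.

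The markers of mineralised tissue and of fibroblasts moved in part with Col1a1. Of 10 odontoblast and osteoblast genes, 6 were tested, Dmp1, Phex and Mepe were not detected often enough, and Alpl was not analysed here. The summed log2 level of the brightest probe of each of the 6 was 29.7 to 32.6 in controls and 33.8, 29.4, 34.4 and 35.4 in mutant replicates 1 to 4. Both Bglap1 and Bglap2 count in this sum. Relative to the control mean, Bglap1 was at 0.80, -0.65, 1.41 and 1.45 and Bglap2 at 1.62, -0.64, 2.05 and 2.44 in these arrays. Dspp, Ibsp, Runx2 and Sp7 stayed within 0.47 of the control mean in them. Mutant replicate 2 had the lowest sum of all arrays and was the lowest mutant for Col1a1, but single genes did not all follow. Relative to the control mean, Bglap2 was at -0.64 in that array, whereas Runx2 was at 0.47, its highest value. The osteocalcin genes Bglap1 and Bglap2, near-identical copies whose probes may share targets, held 4 of the 5 probes with an unadjusted p under 0.05 among the 10 tested of this list, against 8.00% of all tested probes. All 5 were higher in mutants. The fifth was a probe of Runx2, a transcription factor of bone formation (difference 0.30, SE 0.11, limma adjusted p = 0.491). The other tested Runx2 probe differed by 0.13 (SE 0.13, limma adjusted p = 0.843). Group means of the Runx2 probes were 4.36 to 4.74, also close to the detection band. Bglap2 read 5.42, 5.87 and 4.95 in controls and 7.04, 4.78, 7.46 and 7.85 in mutants (difference 1.24, SE 0.41, limma adjusted p = 0.457). Ibsp, the bone sialoprotein gene, and Dspp, the dentin sialophosphoprotein gene, differed by -0.040 to 0.038, close to the detection band. Sp7 of the same list stood above that band, at 5.97 in controls and 5.94 in mutants on average. Its difference was -0.016 (SE 0.17, limma adjusted p = 0.991). Relative to the control mean, Sp7 was at 0.33, -0.20, -0.15 and -0.065 in mutant replicates 1 to 4. For fibroblast and mesenchyme markers, 6 of 10 genes were tested, and the summed level was 39.7 to 41.1 in controls and 42.3, 41.0, 40.8 and 41.8 in mutants. Lum, the gene of the collagen-binding proteoglycan lumican, read 5.68, 4.83, 4.59 and 5.28 in the mutants and 4.55 to 4.74 in controls, so that mutant replicates 1 and 4 were high. The Lum values of the controls were close to the detection band. Dcn of the same list was also high in mutant replicates 1 and 4, at 0.47 and 0.95 relative to the control mean. It was at 0.022 and -0.054 in mutant replicates 2 and 3. Thy1, Pdgfra, Fbln1 and Vim did not share this order. Relative to the control mean, Thy1 was highest in mutant replicate 3 (0.55) and Pdgfra in mutant replicate 2 (0.27). Fbln1 was at -0.32 and Vim at -0.14 in mutant replicate 4. The part of these cells in the Col1a1 values was not tested.

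**Figure D5:**
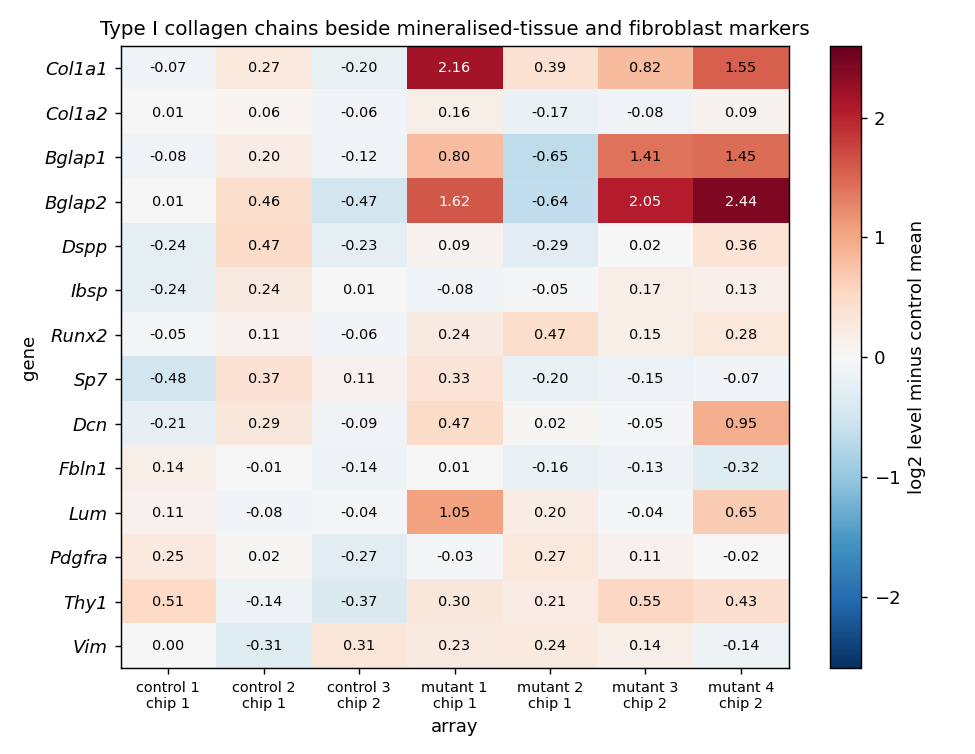
Log2 level minus the control mean (colour and printed value) of Col1a1, Col1a2 and every tested gene of the odontoblast and osteoblast list (Bglap1 to Sp7) and of the fibroblast and mesenchyme list (Dcn to Vim), by array. Each gene is shown by its brightest probe. Col1a1 reads 2.16, 0.39, 0.82 and 1.55 in mutant replicates 1 to 4, Bglap2 reads 1.62, -0.64, 2.05 and 2.44, and Col1a2 stays within 0.17 of the control mean.

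Type V collagen, which sits inside type I fibrils and limits their width, gave the second pattern. The Col5a2 probe read 5.74, 5.88 and 6.12 in controls and 5.44, 5.51, 5.46 and 5.63 in mutants. Every mutant array lay below every control, with SDs of 0.19 (n = 3) and 0.08 (n = 4). The fitted difference was -0.43 (SE 0.11, 95% interval -0.67 to -0.20), -0.34 on chip 1 and -0.58 on chip 2, and it did not pass (limma adjusted p = 0.337). Its partner chain Col5a1 read 6.40, 6.30 and 6.28 in controls and 6.45, 6.58, 6.02 and 6.30 in mutants, a difference of 0.054 (SE 0.12). Within arrays, Col5a1 minus Col5a2 shifted by 0.42 (exact two-sided permutation p = 0.114, adjusted 0.171). The regroupings did not keep to the chips. On chip 1 this difference was 0.65 and 0.42 in controls and 1.01 and 1.07 in mutants, and on chip 2 it was 0.15 in the control and 0.56 and 0.68 in mutants. Within each chip every mutant lay above every control, with shifts of 0.50 and 0.46. The Col5a2 difference shrank to -0.20 without background correction and in the series matrix values with a chip term, to -0.19 in the same values without it, and to -0.26 with an offset of 50.

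None of the other fibrillar collagens passed the test. These were the cartilage collagen genes Col2a1, Col11a1 and Col11a2, the connective tissue gene Col3a1 and the minor fibrillar gene Col27a1. Probe ILMN_2759144 of Col2a1 read 4.14, 4.22 and 4.34 in controls, where it was detected on 0 arrays, and 4.55, 4.44, 4.63 and 4.24 in mutants, where it was detected on 3. It passed the detection filter only through the mutant arrays, so that no difference is read from it. The other Col2a1 probe differed by -0.040. The tested Col11a1 probes differed by 0.16 and -0.041 and the Col11a2 probe by -0.00059, at group means of 4.43 to 4.75, close to the detection band. Cartilage markers other than collagens were sparse, with only Acan and Sox9 of 6 genes tested, while Matn1, Matn3, Comp and Hapln1 were not (summed level 13.4 to 13.6 in controls and 12.9 to 13.4 in mutants). Col27a1 read 4.95 to 5.26 in controls and 5.10 to 5.33 in mutants (difference 0.090), and overlapped. The tested Col3a1 probe read 4.50, 4.16 and 4.45 in controls and 4.58, 4.25, 4.78 and 4.33 in mutants, also overlapping (difference 0.096, SE 0.13).

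The basement membrane chains Col4a1 and Col4a2, which assemble together, both stood slightly lower in the mutants. Their genes lie head to head on chromosome 8, and the RefSeq starts of the pair overlap by 22 bases, shown here because both chains are read from it (GRCm38.p6, chr8:11312805-11312826, plus strand, with a GC box in capitals).
Col4a1 and Col4a2: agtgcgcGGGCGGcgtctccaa
Col4a1 read 7.49, 7.56 and 7.56 in controls and 7.31, 7.24, 7.44 and 7.46 in mutants, so that every mutant array lay below every control. Its difference was -0.20 (SE 0.11, 95% interval -0.42 to 0.028, limma adjusted p = 0.661). Col4a2 read 6.34, 6.37 and 6.58 in controls and 6.34, 6.23, 6.17 and 6.27 in mutants, a difference of -0.18 (SE 0.11, 95% interval -0.42 to 0.051, limma adjusted p = 0.699). Neither passed. With median scaling the differences were -0.069 and -0.068, and without control replicate 3 that of Col4a2 was -0.067. Within arrays, Col4a1 minus Col4a2 was 1.11 in both genotypes on average (exact two-sided permutation p = 1.00), though it shifted by -0.19 on chip 1 and 0.25 on chip 2. Col4a5, a chain of other basement membranes, read 4.41 to 4.71 in controls and 4.50 to 4.72 in mutants, near the detection band, and differed by 0.073.

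None of the 5 probes of the collagens that fix basal epithelium to its basement membrane passed the test, and each 95% interval included 0. Col17a1, the hemidesmosome collagen, had 3 probes, all detected on all arrays. Probe ILMN_2879995 read 7.77, 7.78 and 7.66 in controls and 7.70, 7.95, 7.66 and 7.71 in mutants, a difference of 0.038 (95% interval -0.19 to 0.27). Probe ILMN_1240481 read 7.31, 7.45 and 7.54 in controls and 7.47, 7.33, 7.35 and 7.43 in mutants (difference -0.048, 95% interval -0.28 to 0.18). Probe ILMN_1216228 read 7.18, 7.36 and 6.93 in controls and 7.17 to 7.49 in mutant replicates 1, 2 and 4, with replicate 3 between the controls (difference 0.16, 95% interval -0.067 to 0.40). The genotypes overlapped on all 3 probes, with limma adjusted p-values of 0.737 to 0.956. Col7a1, the anchoring fibril collagen, had 2 probes of opposite sign. Probe ILMN_2901944 read 7.99, 7.79 and 7.93 in controls and 7.61, 7.79, 8.04 and 7.89 in mutants (difference -0.10, 95% interval -0.34 to 0.14). Probe ILMN_2651234 read 6.10, 6.03 and 5.91 in controls and 6.13, 6.33, 6.30 and 6.07 in mutants (difference 0.21, 95% interval -0.027 to 0.45, limma adjusted p = 0.654). Col18a1, a basement membrane collagen that releases endostatin, differed by 0.033 on probe ILMN_2735184 (6.90, 6.76 and 6.74 in controls, 6.80, 6.73, 6.98 and 6.86 in mutants) and by -0.0035 on the dimmer probe ILMN_2937542. Both overlapped.

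The upstream sequences of Col17a1, Col7a1 and Col1a2 are shown because the first 2 are the collagens of the cells in which the Cre is driven and Col1a2 is the type I chain whose probe overlapped between genotypes. Each is the 250 bases before the RefSeq start in GRCm38.p6, 5′ to 3′ on the strand of the gene, at chr19:47692043-47692292 (minus strand), chr9:108953336-108953585 (plus strand) and chr6:4505368-4505617 (plus strand). Capitals mark CCAAT boxes (CCAAT), GC boxes (GGGCGG) and TATA boxes (TATAAA) on either strand.
Col17a1: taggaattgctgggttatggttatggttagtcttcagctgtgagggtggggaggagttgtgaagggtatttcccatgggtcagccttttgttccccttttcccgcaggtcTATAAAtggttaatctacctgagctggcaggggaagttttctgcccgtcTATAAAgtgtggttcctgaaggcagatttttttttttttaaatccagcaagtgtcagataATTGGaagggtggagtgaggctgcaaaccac
Col7a1: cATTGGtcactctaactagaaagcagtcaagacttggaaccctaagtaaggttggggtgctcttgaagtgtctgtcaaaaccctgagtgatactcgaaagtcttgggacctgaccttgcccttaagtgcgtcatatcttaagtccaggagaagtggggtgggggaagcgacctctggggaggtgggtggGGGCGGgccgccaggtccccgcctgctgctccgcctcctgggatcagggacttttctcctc
Col1a2: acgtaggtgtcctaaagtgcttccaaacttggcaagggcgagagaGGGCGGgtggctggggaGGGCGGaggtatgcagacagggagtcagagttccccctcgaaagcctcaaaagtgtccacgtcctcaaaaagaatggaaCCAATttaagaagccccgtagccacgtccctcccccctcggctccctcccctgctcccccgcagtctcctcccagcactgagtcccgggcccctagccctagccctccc
TEAD factors, the DNA-binding partners of YAP and TAZ, recognise a core of GGAATG. That core was searched on both strands and is in none of these 3 windows. Upstream windows were available for 29 member genes. The other 7, Col1a1, Col5a2, Col2a1, Col4a3, Col9a3, Col12a1 and Col14a1, had none and were not searched. Over the 32 windows of the 29 genes, the TEAD core was in 3 (9.38%), those of Col3a1, Col6a2 and Col18a1, against 12.6% of all 32851 windows. CCAAT was in 12 (37.5%) against 33.8%, GGGCGG in 18 (56.2%) against 32.7%, and TATAAA in 5 (15.6%) against 12.4%. None of the 4 motifs contains another. A match is a string of letters in a window and not a bound site.

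Among the FACIT collagens, 4 of 7 genes were tested, with differences from -0.36 to 0.021. Col9a1, a chain of the collagen that coats type II fibrils, had 1 tested probe, while its probes ILMN_2706692 and ILMN_2706693 were detected on 0 arrays. The tested probe read 4.36, 4.84 and 4.73 in controls and 4.22, 4.49, 4.14 and 4.27 in mutants, close to the detection band. Its detected arrays were 2 of 3 controls and 1 of 4 mutants, and the genotypes overlapped. The difference was -0.36 (SE 0.13, 95% interval -0.63 to -0.083, limma adjusted p = 0.489), and -0.24 and -0.53 on chips 1 and 2. It was -0.12 without background correction and in the series matrix values with a chip term, -0.13 in those values without it, and -0.14 with an offset of 50. The other type IX chains did not follow it closely. Col9a2 read 5.96, 5.23 and 5.48 in controls and 5.55, 5.55, 5.93 and 5.24 in mutants (difference 0.016). Col9a3 read 5.12, 4.99 and 5.05 in controls and 5.07, 5.01, 4.36 and 4.99 in mutants (difference -0.16), where mutant replicate 3 alone stood low. Col16a1, a collagen of fibril surfaces and cell adhesion sites, read 6.30, 5.75 and 6.02 in controls and 6.11, 5.92, 6.03 and 6.14 in mutants (difference 0.021).

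The remaining tested members were close to the detection band. Col25a1, a transmembrane collagen known from neurons, had 2 tested probes of 5. Probe ILMN_2643187 read 4.73, 4.52 and 4.50 in controls and 4.37, 4.32, 4.42 and 4.27 in mutants, with every mutant below every control (difference -0.23, 95% interval -0.47 to 0.0023, limma adjusted p = 0.622). It was detected on 3 control arrays and 1 mutant array. The controls alone met the detection filter, so that no difference is read from this probe. Probe ILMN_1237273 overlapped between the genotypes and differed by 0.13 on chip 1 and -0.56 on chip 2. Col6a2, a chain of beaded filaments, differed by -0.0061, with -0.19 on chip 1 and 0.26 on chip 2. Col8a2, a chain of hexagonal networks, was detected on 0 control and 3 mutant arrays, and entered the test only through the mutants. It read 4.27, 4.30 and 4.32 in controls and 4.50, 4.45, 4.15 and 4.44 in mutants, and no difference is read from it.

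The difference between the chips was tested for each probe. No collagen probe passed the interaction of genotype and chip in limma at an adjusted p of 0.05, against 0.00% of all tested probes. At an unadjusted p under 0.05 in the limma interaction fit there was 1 of 29 (3.45%), the Col25a1 probe ILMN_1237273, against 3.36%. Its interaction was -0.70 (SE 0.26, limma adjusted p = 0.999). The sign of the genotype difference was the same on both chips for 15 of 29 collagen probes, and for 8072 of all 14666. The median difference over the collagens was -0.0050 on chip 1 and 0.034 on chip 2.

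Genes that make, bind and cut collagen were also measured. Of 29 genes of collagen synthesis and crosslinking, 20 were tested and 0 passed in either direction in limma, with a median difference of -0.032 (7 positive and 13 negative at 1 probe per gene). At an unadjusted p under 0.05 there were 2 of their 29 probes, against 8.00% of all tested probes. Serpinh1, the chaperone of procollagen, averaged 7.33 (SD 0.12, n = 3) in controls and 6.83 (SD 0.19, n = 4) in mutants, and all 4 mutant arrays lay below the lowest control, 7.19 (difference -0.50, SE 0.12, limma adjusted p = 0.295). The other of these 2 probes was of Adamts2, the protease that trims the amino end of procollagen. It read 4.16, 4.20 and 4.21 in controls, below the detection band, and 4.54, 4.37, 4.46 and 4.59 in mutants. This probe passed the detection filter only through the mutant arrays, so that no difference is read from it. The remaining Adamts2 probes differed by 0.23 and 0.11. Bmp1, the protease of the carboxyl end, differed by -0.24 to 0.12 over 4 probes. Of 10 collagen receptor genes, 5 were tested and 0 passed, with 1 of 9 probes at an unadjusted p under 0.05, against the same 8.00%. The integrin genes Itgb1 and Itga2 differed by -0.25 (second probe -0.11) and 0.24. Mrc2, an endocytic collagen receptor gene, differed by 0.23 on 1 probe and by -0.062 on the other, both near the detection band. The median over the 5 genes was -0.076. Of 8 collagenase genes, 5 were tested and 0 passed, with 0 of 7 probes at an unadjusted p under 0.05, and Mmp13 differed by -0.25 and -0.21 on its 2 probes and Mmp9 by -0.17. The median over the 5 genes was -0.040.

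The authors' deposited table lists 38 collagen probes and gives 0 of them a q-value under 0.05, against 13 of its 17174 probes. Its lowest collagen q-value is that of Col1a1, at 0.0525 in the authors' deposited table, followed by Col5a2 at 0.113 and Col9a1 at 0.158. On the log2 scale of the authors' deposited table, which its name says was adjusted with ComBat for the array ID, Col1a1 averages 6.53 in controls and 7.17 in mutants.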

How the data were processed

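Total RNA of labial cervical loops was made into biotinylated cRNA and hybridised to Illumina bead arrays, per the labels' protocols. The authors deposited intensity values without normalization, each the mean of a probe's beads, beside a deposited detection p-value, the deposited bead standard error and bead number. They also deposited log2 values adjusted with ComBat, per the file headers and table name, and p-values and q-values of their own comparison. The summarising software and the normalization before ComBat are not given in the sources used here.

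Intensities were processed in R 4.3.3 with limma 3.58.1: background correction (normal-exponential model, negative controls inferred from detection p-values, offset 16), quantile normalization and log2. The offset compresses differences of dim probes. Probes detected (p under 0.05) on at least 3 of 7 arrays were fitted across all 14666 probes with lmFit and eBayes, with genotype and chip as terms. P-values are two-sided and Benjamini-Hochberg adjusted over all tested probes at 0.05, and the fit was tested on simulated data. Group means and SDs leave out the chip term. A second fit added the interaction of genotype and chip. Partner chains were compared by an exact permutation test over the 35 regroupings of the arrays.

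The members, classes, marker and pathway lists and the rule for named genes were chosen with earlier results of these data known. That rule gives array values for a fixed set of 12 genes and, per class, for the probes of smallest p and highest signal. Probe sequences and positions were not used here. Upstream sequences are RefSeq's for GRCm38.p6, and the arrays name no build. The number of arrays, at a median of 31 to 38 beads per probe, limits the precision. Filter, background, offset, scaling, chip term, array weights, eBayes options, deposited log2 values, replicate block, single arrays left out and single chips were tried as alternatives.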

Additional observations from a re-analysis of the deposited data

Results flagged for a closer look

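Col9a3, a chain of type IX collagen, read 4.36 in mutant replicate 3 against 4.99 to 5.07 in the other mutant arrays. The gap to the nearest of the others was 0.88 of the whole range of the group, above Dixon's 95% critical value for 4 samples. It was 1 of 29 tested collagen probes to be marked in this way, and chance marks about 5% of groups.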

How the results depend on the processing

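The count of collagen probes past the threshold was 0 under every alternative except 2: it was 1, Col1a1, without mutant replicate 2 and 1 on the second chip alone, where the lone control is assumed to vary like the other arrays. Leaving out single arrays thus gave 0 to 1. The cause was not tested. The median collagen difference moved to 0.077 with median scaling, which shifted all probes by 0.068, and moved by less than the spread between arrays elsewhere. The chip interaction called 0 collagen probes wherever it was fitted. It has no estimate without control replicate 3, within 1 chip or without a chip term, and it was not run with the replicate block or on the series matrix values. Over all 598 probe values recomputed, 55 changed sign, all of probes that passed neither before nor after, and 13 of the 29 probes kept their sign throughout. The calls over all probes moved more: 9 (5 higher, 4 lower) became 9 higher and 0 lower with median scaling, 0 without the detection filter, without background correction, with an offset of 50 and in the series matrix values, 0 to 14 with single arrays left out, and 1 and 13 when fitted within chip 1 and chip 2. Whether the replicate numbers pair the samples cannot be told from these arrays. Same-numbered arrays correlated at -0.019, 0.16 and 0.15. Control replicates 2 and 3 correlated best with the mutant of the same number, which also shared their chip. Control replicate 1 correlated best with mutant replicate 4 (0.051). With the replicate block, in which mutant replicate 4 has no partner and adds nothing, 0 collagen probes passed, the median was -0.0012, and 9 probes passed in all. Low signal limits what could be seen for 14 genes with no tested probe, and for tested probes close to the detection band, whose differences the offset compresses.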
